A study of Mus musculus with 16 samples.

Results

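Natural killer (NK) cell RNA was examined for 30 genes of the interferon gamma response: 15 GTPases (8 guanylate-binding proteins and 7 immunity-related GTPases), 8 genes of peptide generation and transport for MHC class I, both chains of the interferon gamma receptor, the transcription factor Irf1, and 4 other genes known to be induced by interferon gamma (Cd274, Serpina3g, Serpina3f and Ly6a). The members were taken by gene symbol. All 30 were among the 49671 genes of the count table and all 30 were among the 13940 genes with enough counts to be tested.

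The NK cells were sorted as live CD45+ CD3- NKp46+ DX5+ cells from lungs and from the axillary lymph node that drains the tumour (LN), with 5000 to 10000 cells per sample, and their RNA was made into full-length Smart-seq2 libraries. Every mouse, controls included, was of the genotype Cdh1F/F;Trp53F/F;Foxp3GFP-DTR on the FVB/N background and carried an orthotopically transplanted KEP mammary tumour of 100 mm2. Foxp3GFP-DTR puts a diphtheria toxin receptor under Foxp3, so diphtheria toxin (DT) is directed at Foxp3-expressing cells, chiefly regulatory T cells, and not at NK cells. Treated mice were given 25 ug of DT and controls PBS, both at T = 0 and T = 7 (the unit of T is not stated). The 4 groups are LN PBS, LN DT, lung PBS and lung DT, each with 4 libraries that the study calls biological replicates. Ages, and whether a library holds cells of 1 mouse or of a pool, are not stated. All DT-treated mice carried the receptor, so an action of DT apart from Foxp3-expressing cells cannot be told apart from their loss.

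Interferon gamma, which NK cells themselves secrete, binds a receptor of Ifngr1 and Ifngr2 chains, and many promoters that respond to it carry GAS elements. It induces Irf1, a transcription factor that binds ISRE sites, as well as the GTPases, which act on the membranes around intracellular pathogens, and the antigen-processing genes. The immunoproteasome replaces the constitutive proteolytic subunits, its activator opens the proteasome, and Tap1, Tap2 and Tapbp bring the peptides to MHC class I molecules.

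The promoter stretches below are shown because they hold these sites in members whose values are described later. They were cut from RefSeq windows of GRCm38.p6 that run from 250 bases before to 50 bases after each transcript start, and 23 of the 30 members had at least 1 window (27 windows). Capitals mark a GAS match (TTCNNNGAA, which reads the same on both strands) or an ISRE match (GAAANNGAAA, searched on both strands, so that it can appear as its reverse complement), and flanking bases are in lower case. Each stretch lies upstream of its RefSeq transcript start, outside the exons of the GENCODE mouse annotation. The sites lie at chr11:58199499-58199543 (plus strand) for Igtp, chr11:58214890-58214934 (plus) for Irgm2, chr11:48992302-48992346 (minus) for Tgtp1, chr11:49064261-49064305 (minus) for Tgtp2, chr11:53769912-53769944 (plus) for Irf1, chr3:142530218-142530304 (plus) for Gbp7 and chr12:104236102-104236134 (plus) for Serpina3g.
Igtp: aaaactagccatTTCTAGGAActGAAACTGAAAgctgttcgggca
Irgm2: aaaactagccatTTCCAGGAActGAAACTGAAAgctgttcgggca
Tgtp1: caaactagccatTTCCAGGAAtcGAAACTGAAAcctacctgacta
Tgtp2: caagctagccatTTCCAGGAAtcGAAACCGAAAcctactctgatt
Irf1: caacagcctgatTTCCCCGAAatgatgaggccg
Gbp7: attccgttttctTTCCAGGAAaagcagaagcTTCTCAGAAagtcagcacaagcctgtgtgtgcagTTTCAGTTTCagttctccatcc
Serpina3g: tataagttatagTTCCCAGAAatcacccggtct

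In Igtp, Irgm2, Tgtp1 and Tgtp2 the GAS match was followed after 2 bases by an ISRE match, and the 4 stretches share most of their letters. Over 45 aligned bases Igtp and Irgm2 were identical at 44, Tgtp1 and Tgtp2 at 37, and the other 4 pairs at 32 to 34. Gbp7 had 2 GAS matches and an ISRE match further downstream, while Irf1 and Serpina3g had a GAS match without an ISRE match. A GAS match was present in 11 of the 27 member windows (40.7%) and in 8.30% of all 32851 windows of the same length. ISRE matches were present in 10 member windows (37.0%) and in 3.44% of all windows. At least 1 of the 2 motifs was present in 15 member windows (55.6%), against 11.3% of all windows. Windows are not all separate observations, since the 2 Serpina3f windows hold the same GAS match. By gene, a GAS match was present in 10 of 23 members (43.5%), against 9.55% of all symbols. An ISRE match was present in 10 (43.5%), against 3.99%, and either motif in 14 (60.9%), against 12.9%. A match is a description of the letters and was not tested as a binding site.

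Several members lie in clusters of related genes, and a few share much of their sequence with other genes. Gbp2, Gbp3, Gbp5 and Gbp7 lie on chromosome 3 between 142493978 and 142638008, and Gbp4, Gbp6, Gbp8 and Gbp9 on chromosome 5 between 105014150 and 105293698 (GRCm38). Of the 50-base stretches in its transcripts, Tgtp2 shares 86.6% with other genes, Tgtp1 81.2% and Gbp6 70.7%, so the division of reads among these genes and their copies is uncertain. The shares are 28.3% for Psme2, 23.2% for Tapbp, 19.0% for Ly6a, 18.1% for Gbp8 and 15.5% for Serpina3g, and at most 12.7% for every other member. The gene models of Gbp4, Gbp8 and Gbp9, of Igtp and Irgm2, and of Tap1 and Psmb9 overlap, and the use of strand in counting is not stated.

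Library totals ran from 3929560 to 10744934 counts. The summed level of 12 NK cell markers was between 25024 and 68765 CPM, counts scaled to the library size in every library. It was 25024 to 33439 CPM in LN PBS and 35021 to 68765 in LN DT, where Gzma alone went from 3908 to 9604 CPM to 13155 to 36965, and the median log2 fold change of the 12 markers was 0.07. In lung it was 41581 to 46732 CPM with PBS and 67483, 29884, 28364 and 37096 with DT, with 9 of 12 markers at a lower fitted mean and a median of -0.31. The DT libraries numbered 1, of LN and of lung, differed from the others, with Malat1 at 18216 and 17164 CPM against at most 8511 elsewhere. Mitochondrial genes took 1.05% to 1.68% of counts in LN PBS, 1.24% to 4.93% in LN DT, 0.951% to 2.57% in lung PBS and 3.11% to 4.40% in lung DT. In LN, the 8 B cell markers summed to 65.9 to 117 CPM with PBS and 144 to 923 with DT, with 8 of 8 at a higher fitted mean, and the dendritic cell markers to 76.6 to 92.0 with PBS (Clec9a at 0) and 71.6 to 375 with DT (5 of 6 tested higher, none at 0). The 8 plasma cell markers in LN summed to 765 to 1297 CPM with PBS (Tnfrsf17 at 0) and 995 to 2506 with DT, with 4 of 5 tested higher and a median log2 fold change of 2.80. Of these, Jchain stood at 0 to 0.12 CPM with PBS and 39.7 to 275 with DT (adjusted p = 0.0244), and Igkc at 32.5 to 59.4 and 163 to 1228. Ighm, the most abundant of them with PBS, went the other way, at 461 to 929 CPM with PBS and 312 to 606 with DT. In lung, the 8 macrophage and monocyte markers summed to 297 to 2592 CPM with PBS and 144 to 3845 with DT (6 of 8 higher, none at 0), with 144 in lung DT replicate 4. Dendritic cell markers in lung summed to 66.4 to 100.3 CPM with PBS (Clec9a at 0) and 129 to 198 with DT, and the 8 T cell markers to 39.4 to 79.1 and 60.6 to 430 (Cd8b1 at 0 in both), with 430 in lung DT replicate 1. B cell markers in lung summed to 11.7 to 92.7 CPM with PBS and 10.9 to 157 with DT (8 of 8 higher). Neutrophil markers there summed to 14.9 to 100.2 and 9.17 to 289 CPM (4 of 5 tested higher, Camp at 0 in both). The part of these differences in the members' values was not tested.

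Per kilobase of exon, the scale on which genes can be compared, Ifngr1 had the highest level of the 30 members in every group, from 343 ± 202 CPM per kilobase in LN DT to 1030 ± 266 in lung PBS (SD, n = 4). Psme2, a subunit of the proteasome activator, ranked second in every group, at 199 to 326 CPM per kilobase. Ifi47, an immunity-related GTPase, came next in LN PBS, LN DT and lung PBS. Gbp6 had the lowest mean in every group, at 0.0701 to 0.554 CPM per kilobase, but it shares 70.7% of its 50-base stretches with other genes, so its level is uncertain. In lung PBS its libraries (0.0167 to 0.140) overlapped those of Iigp1 (0.0426 to 0.375) and Tgtp1 (0.113 to 0.260). In LN PBS, LN DT and lung DT they overlapped those of Ifngr2. The libraries of Ifngr1 and Psme2 overlapped in LN PBS (282 to 489 and 243 to 323), LN DT (218 to 644 and 254 to 494) and lung DT (333 to 765 and 133 to 369), so that these neighbours in the order were not separated there. In LN DT the higher mean of Ifngr1 rests on replicate 4, which was far above the other 3. In lung PBS the lowest Ifngr1 library (786 CPM per kilobase) lay above the highest Psme2 library (225).

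In LN, the comparison of DT with PBS asks what the treatment changes in NK cells of the draining node. Ly6a had the largest difference of the members, with a mean of 6.31 ± 5.50 CPM with PBS and 121 ± 19.2 with DT (SD, n = 4), and Gbp8, Gbp4, Gbp6, Iigp1, Cd274 and both serpins were likewise higher in every DT library, while the antigen-processing genes were not. No member passed an adjusted p of 0.05 in edgeR (0 of 30, where 0.0646% of all tested genes did), while 6 members with higher and 2 with lower values had an unadjusted p under 0.05, against 8.29% and 3.52% of all tested genes. DESeq2 called 3 members higher (Ly6a, Gbp8 and Gbp4) and 0 lower, against 246 and 52 of the 13940 tested genes. With quality weights, limma-voom called 8 higher and 5 lower, against 2084 and 1652 of all tested genes. Its weights were 3.69 and 4.32 for LN DT replicates 2 and 3, and 0.266 and 0.589 for replicates 1 and 4. For 8 members all 4 DT libraries lay above all 4 PBS libraries, where 5.05% of all tested genes did so: Ly6a, Gbp8, Gbp4, Gbp6, Serpina3g, Serpina3f, Iigp1 and Cd274. For 0 members they lay below, against 3.42% of all tested genes. In all, 21 of 30 members had a fold change above 0, against 54.6% of all tested genes, with a median log2 fold change of 0.16 against 0.08. In such bulk libraries, fewer cells with a transcript and less of it per cell cannot be told apart.

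Ly6a, which encodes the surface protein Sca-1, stood at 3.68, 13.4, 7.44 and 0.679 CPM in LN PBS replicates 1 to 4 and at 145, 108.5, 127 and 103 CPM in LN DT. Every DT library was thus far above every PBS library, and the DT libraries lay close together. The log2 fold change was 4.26 ± 0.87 (SE, n = 4; adjusted p = 0.0820). Replicate 4 was the lowest of the 4 DT libraries, at 103 CPM. Its dendritic cell markers summed to 89.5 CPM, within the PBS range, its B cell markers to 144 CPM, above it, and its mitochondrial share was 1.24%, within it. The part of other cells and of RNA quality in the Ly6a difference was not tested.

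Gbp8, a guanylate-binding protein, stood at 2.73, 2.91, 4.83 and 4.52 CPM in LN PBS and at 41.3, 17.0, 27.1 and 31.0 CPM in LN DT. The lowest DT library was well above the highest PBS library, and the log2 fold change was 2.95 ± 0.58 (adjusted p = 0.0725). Gbp4, a far more abundant member of the family, stood at 296, 227, 226 and 163 CPM in LN PBS and at 705, 442, 521 and 403 in LN DT. Its groups did not overlap either, with a log2 fold change of 1.18 ± 0.32 (adjusted p = 0.172). Gbp6 was scarce, at 0.496 to 1.05 CPM in LN PBS and 2.09 to 4.80 in LN DT (1.98 ± 0.85, adjusted p = 0.375). Gbp4 and Gbp8 share part of their gene models, and Gbp6 shares most of its sequence with relatives, so these 3 are not fully separate observations.

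The rest of the guanylate-binding proteins had smaller differences. All 8 had fitted log2 fold changes above 0, with a median of 0.58, but those of Gbp2, Gbp3 and Gbp5 were between 0.01 and 0.07, and with median-ratio factors or total counts as the scaling 7 of 8 were above 0. Gbp7 and Gbp9 were highest in LN DT replicate 1, at 852 and 610 CPM, with the other 3 DT libraries at 235 to 386 and 242 to 396 CPM. Those 3 libraries overlapped the LN PBS ranges of 271 to 443 CPM for Gbp7 and 141 to 284 for Gbp9.

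Serpina3g, an intracellular serine protease inhibitor, stood at 8.94, 18.4, 23.0 and 14.1 CPM in LN PBS and at 47.8, 32.1, 51.1 and 92.7 in LN DT (log2 fold change 1.79 ± 0.85, adjusted p = 0.423). Serpina3f, its neighbour on chromosome 12, stood at 3.15, 16.5, 37.4 and 15.2 CPM with PBS and at 72.8, 43.6, 56.1 and 115 with DT (2.00 ± 0.79, adjusted p = 0.327). For both, all DT libraries were above all PBS libraries, and for Serpina3f the margin was narrow. Cd274, which encodes the inhibitory ligand PD-L1, stood at 31.5, 31.3, 41.9 and 44.9 CPM with PBS and at 69.7, 53.6, 54.6 and 62.7 with DT (0.69 ± 0.39, adjusted p = 0.517). Here too the groups did not overlap, with a smaller difference than in the serpins.

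**Figure D1:**
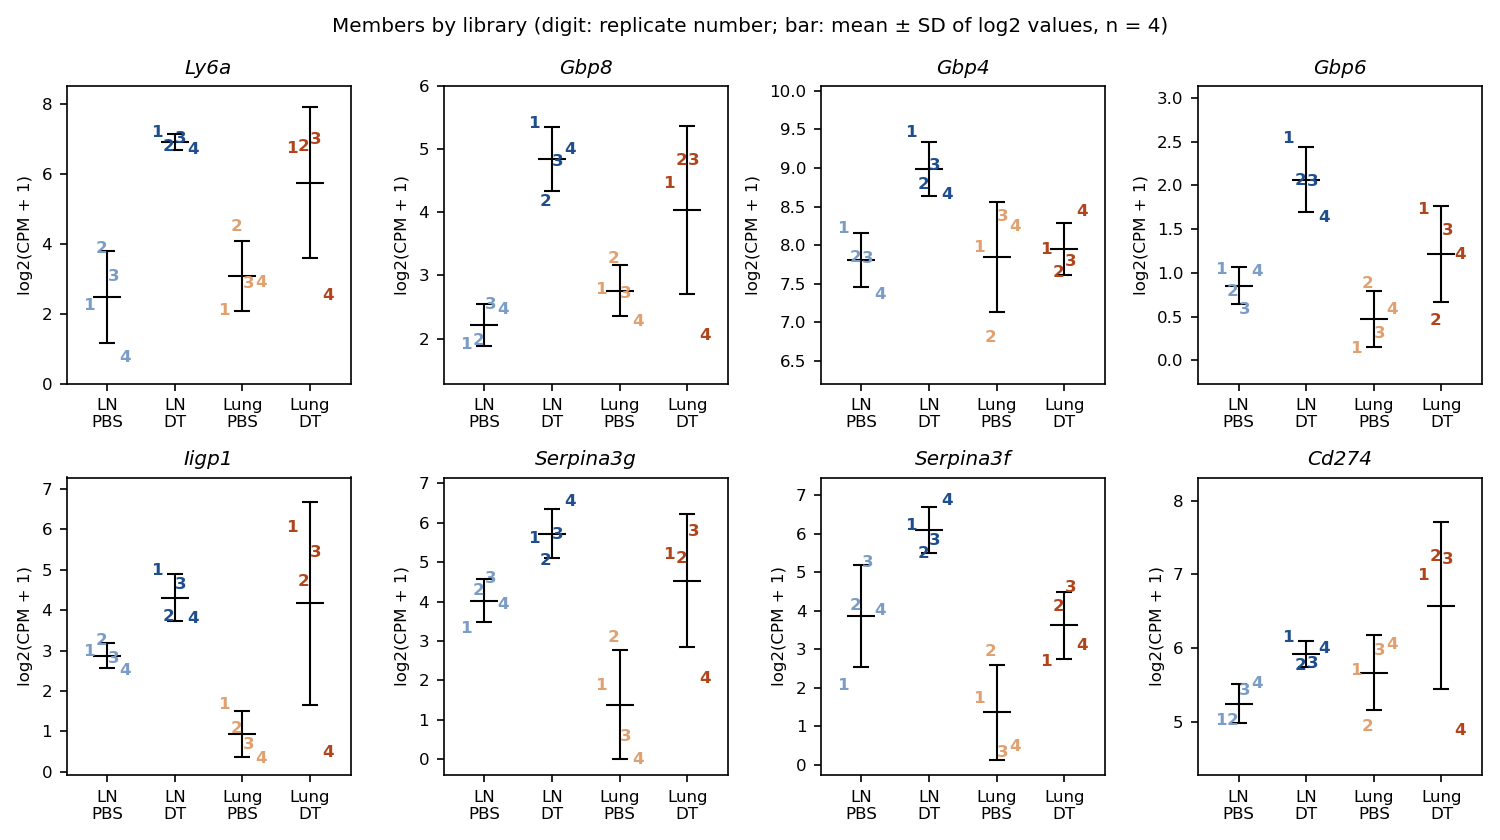
Levels of 8 members in each library, as log2(CPM + 1), in LN PBS, LN DT, lung PBS and lung DT; digits are replicate numbers and bars the mean ± SD of the log2 values (n = 4). In LN the DT libraries lie above all PBS libraries for all 8 members, and in lung, DT replicate 4 lies within or below the PBS range for Ly6a, Gbp8, Iigp1, Serpina3g and Cd274.

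Among the immunity-related GTPases in LN, 4 of 7 had a fold change above 0 and the median was 0.02 (-0.02 with total counts as the scaling). Iigp1 was the one whose groups did not overlap, at 6.84, 8.48, 5.95 and 4.64 CPM with PBS and 30.5, 13.3, 23.8 and 12.9 with DT (1.63 ± 0.84, adjusted p = 0.460). Igtp and Irgm2 had log2 fold changes of 0.02 and -0.11, and Irgm1 and Ifi47 of -0.56 and -0.44, with overlapping libraries. Tgtp2 stood at 131 CPM in LN DT replicate 1 and at 31.8 to 39.8 in the other DT libraries, which lay within or just below the PBS range of 36.1 to 55.3.

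None of the antigen-processing genes separated the LN groups. Of the immunoproteasome and its activator 1 of 5 genes had a fold change above 0, with a median of -0.28, and 2 of 3 transport and loading genes did, with a median of 0.10. Psmb10, a proteolytic subunit of the immunoproteasome, stood at 233, 398, 305 and 357 CPM in LN PBS and at 178, 203, 182 and 265 in LN DT (log2 fold change -0.64 ± 0.24, adjusted p = 0.296). Tapbp, which encodes tapasin, the bridge between the transporter and MHC class I, stood at 734, 609, 827 and 775 CPM with PBS and at 235, 384, 393 and 753 with DT (-0.74 ± 0.32, adjusted p = 0.373). Both genes overlapped between groups. For Tapbp the DT libraries of lowest level were those of highest mitochondrial share, and with that share as a covariate its log2 fold change was 0.046. The share was 4.93%, 4.18%, 4.01% and 1.24% in LN DT replicates 1 to 4, against 1.05% to 1.68% in LN PBS. It thus followed the treatment except in replicate 4, so the 2 cannot be told apart well. The part of RNA quality in the Tapbp difference was not tested. LN DT replicate 1 was the lowest of its group for Tap1 (76.9 CPM, others 221 to 264) and Tap2 (24.0 CPM, others 141 to 215) while being the highest for Gbp7, Gbp9, Tgtp2 and Psme2.

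Both receptor chains and Irf1 overlapped between LN PBS and LN DT. Ifngr1 stood at 802 to 1393 CPM with PBS and at 772, 620, 680 and 1834 with DT, so that replicate 4 was above the PBS range and the other 3 below it. Ifngr2 was scarce and uneven, at 0, 4.36, 8.55 and 0 CPM with PBS and 1.71, 21.0, 17.1 and 3.41 with DT. The 2 highest values fell in the libraries with the most B cell marker RNA (915 and 923 CPM summed), and the part of other cells in them was not tested. Irf1 stood at 250 to 327 CPM with PBS and 171 to 386 with DT (0.09 ± 0.26, adjusted p = 0.935).

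By library, LN DT replicate 4 had 15 of 30 members above all 4 PBS libraries and 0 below them, where 15.6% of all tested genes were above and 12.9% below. In LN DT replicates 1, 2 and 3, 14, 12 and 12 members were above and 11, 10 and 7 below. Over all tested genes those shares were 33.8%, 31.0% and 30.2% above and 31.7%, 22.5% and 21.0% below. Replicate 4 thus had the fewest genes outside the PBS range of the 4 DT libraries, and no member under it.

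The call in LN turns on which libraries enter. Without LN DT replicate 4, lung DT replicate 1 or lung DT replicate 4, Ly6a and Gbp8 passed (for both, adjusted p = 0.0407 without LN DT replicate 4), lung libraries entering because all groups share 1 estimate of the spread. Leaving out LN DT replicate 4 called 77 of all tested genes higher and 51 lower. Over the 26 alternatives the adjusted p ran from 1.42e-05 to 0.622 for Ly6a and from 4.74e-05 to 0.493 for Gbp8, and each passed in 8.

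In lung, Iigp1, Ly6a, Serpina3g, Gbp8 and Cd274 were far higher in 3 of the 4 DT libraries than in any PBS library, and replicate 4 was within or below the PBS range for each of them. Ifngr1 was lower in every DT library. No member passed an adjusted p of 0.05 for DT against PBS in edgeR (0 of 30, where 0.108% of all tested genes did, 0.0574% higher and 0.0502% lower). At an unadjusted p under 0.05, 9 members were higher and 3 lower, against 7.66% and 7.06% of all tested genes. DESeq2 called 5 members higher (Iigp1, Serpina3g, Ly6a, Serpina3f and Gbp8) and 0 lower, against 258 and 176 of the 13940 tested genes. With quality weights, limma-voom called 1 higher (Serpina3g) and 1 lower (Ifngr1), against 251 and 184 of all tested genes. For 0 members did the DT libraries lie above all PBS libraries (3.35% of all tested genes), and for 1, Ifngr1, they lay below (4.53%). In all, 22 of 30 members had a fold change above 0, against 54.5% of all tested genes, with a median log2 fold change of 0.29 against 0.09.

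Iigp1, an immunity-related GTPase that acts on parasite-containing vacuoles, stood at 2.18, 1.11, 0.604 and 0.248 CPM in lung PBS and at 64.7, 25.2, 42.2 and 0.393 in lung DT. Replicates 1 to 3 were far above every PBS library, and replicate 4 was within the PBS range (log2 fold change 4.96 ± 0.98, adjusted p = 0.0623). Ly6a stood at 3.28, 21.4, 6.29 and 6.45 CPM with PBS and at 104, 110.2, 126 and 4.72 with DT (3.25 ± 0.84, adjusted p = 0.121). Serpina3g stood at 2.68, 7.49, 0.483 and 0 CPM with PBS and at 35.4, 33.4, 54.3 and 3.14 with DT (3.68 ± 0.95, adjusted p = 0.121). In both genes replicate 4 again fell within the PBS range and the other 3 far above it.

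Gbp8 stood at 5.86, 8.60, 5.56 and 3.85 CPM in lung PBS and at 20.9, 27.2, 27.3 and 3.14 in lung DT (1.73 ± 0.56, adjusted p = 0.189). Cd274 stood at 50.7, 29.7, 61.8 and 65.5 CPM with PBS and at 125, 151, 146 and 28.4 with DT (1.11 ± 0.39, adjusted p = 0.220). Serpina3f stood at 2.28, 6.66, 0.242 and 0.372 CPM with PBS and at 5.45, 16.2, 23.1 and 7.47 with DT (2.57 ± 0.85, adjusted p = 0.199). For Gbp8 and Cd274 replicate 4 was below every PBS library, whereas for Serpina3f it was above all of them and replicate 1 was the one that overlapped.

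Lung DT replicate 4 was also the lung DT library with the least macrophage marker RNA (144 CPM summed, against 1355, 3845 and 3473 in replicates 1 to 3). It had the lowest lung DT sums of B cell (10.9 CPM), neutrophil (9.17), T cell (60.6) and plasma cell (328) markers as well, but not of dendritic cell markers (131). Lung PBS replicate 2 had 2592 CPM of macrophage and monocyte markers with Ly6a at 21.4, Iigp1 at 1.11 and Serpina3g at 7.49 CPM. Ly6a and Serpina3g were thus highest of their PBS group in that library but below lung DT replicates 1 to 3, and Iigp1 was within the range of the other PBS libraries there. The part of RNA from macrophages or other cells in the lung differences was not tested. Without lung DT replicate 4, 53 of the 13940 tested genes were called higher and 85 lower in lung. Among the higher ones were 5 members: Iigp1 (5.31, adjusted p = 0.00259), Ly6a (3.59, 0.0229), Cd274 (1.38, 0.0299), Serpina3g (4.01, 0.0407) and Gbp8 (2.03, 0.0431), each a log2 fold change with its adjusted p. Over all their alternatives the largest adjusted p of these 5 was 0.757 to 0.972. Every library was left out in turn, but singling out this one follows its values for these genes. Without both DT libraries numbered 1, Iigp1 passed (4.34, adjusted p = 0.0275), and over its 26 alternatives the adjusted p ran from 2.58e-06 to 0.815.

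The remaining GTPases in lung differed in how many DT libraries were high. Gbp5, at 5.46, 4.16, 6.29 and 6.21 CPM with PBS, stood at 4.88, 11.9, 13.7 and 17.0 with DT (1.10 ± 0.45, adjusted p = 0.277), with 3 DT libraries above the PBS range. Gbp9 stood at 142, 84.4, 279 and 236 CPM with PBS and at 602, 245, 252 and 281 with DT (0.89 ± 0.41, adjusted p = 0.319). Tgtp1 was at 0.363 to 0.833 CPM with PBS and at 16.4, 0.877, 0.554 and 0 with DT (2.88 ± 1.19, adjusted p = 0.283). Its value rests on lung DT replicate 1, without which the log2 fold change was -0.34. Gbp4, which separated the groups in LN, overlapped in lung at 111 to 330 CPM with PBS and 200 to 344 with DT (0.02 ± 0.31, adjusted p = 0.984). Igtp, with almost the same promoter stretch as Irgm2, had a log2 fold change of 0.10 and Irgm2 of 0.31. Ifi47, at 244 to 553 CPM with PBS and 196 to 309 with DT, had a log2 fold change of -0.59 ± 0.27 (adjusted p = 0.331). By family, 7 of 8 guanylate-binding proteins (8 of 8 with median-ratio factors) had fold changes above 0, with a median of 0.55. So did 6 of 7 immunity-related GTPases, with a median of 0.65. Over all these GTPases, the median log2 deviation from the lung PBS mean was 1.03, -0.11, 0.59 and 0.13 in lung DT replicates 1 to 4. In the lung PBS libraries it was 6.15e-04 to 0.143. Among those not yet described, Gbp6 stood at 0.0993 to 0.833 CPM with PBS and at 2.30, 0.376, 1.80 and 1.31 with DT (1.84 ± 0.89, adjusted p = 0.346), with 3 DT libraries above the PBS range. The log2 fold changes of Tgtp2 (0.90), Irgm1 (0.65), Gbp2 (0.21), Gbp3 (0.12) and Gbp7 (-0.05) had adjusted p of 0.437 or more. Tgtp2 stood at 64.8, 13.5, 20.6 and 16.1 CPM with DT, so only replicate 1 lay above the PBS range of 9.44 to 22.1.

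Ifngr1, the ligand-binding receptor chain, was the member whose lung DT libraries all lay below the PBS libraries, at 3617, 2320, 3556 and 2237 CPM with PBS and 1156, 1053, 947 and 2179 with DT. Replicate 4 lay just under the lowest PBS library and the other 3 well under it. The log2 fold change was -1.14 ± 0.36 (adjusted p = 0.189) and, without both DT libraries numbered 4, an alternative added after the data were seen, -1.52 (adjusted p = 0.0198, range over the alternatives 0.0198 to 0.972). Irf1 had 447 to 521 CPM with PBS and 387, 618, 724 and 646 with DT (0.32 ± 0.26, adjusted p = 0.585), and Ifngr2 0.967 to 30.3 CPM with PBS and 0 to 27.8 with DT.

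Antigen-processing genes in lung again lay near or under their PBS level. Of the immunoproteasome and its activator 2 of 5 had a fold change above 0 (median -0.14), and of the transport and loading genes 1 of 3 (median -0.57). Psmb10 stood at 230, 226, 198 and 141 CPM with PBS and at 142, 139.6, 154 and 108 with DT, overlapping through PBS replicate 4 (-0.55 ± 0.24, adjusted p = 0.304). Tap2 had 123 to 219 CPM with PBS and 20.8, 81.8, 134 and 158 with DT, and as in LN the lowest value was in DT replicate 1. Log2 fold changes were -0.57 for Tapbp, -0.24 for Psmb8, -0.14 for Psme1, 0.08 for Psmb9, 0.19 for Tap1 and 0.26 for Psme2, none with an unadjusted p under 0.05.

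**Figure D2:**
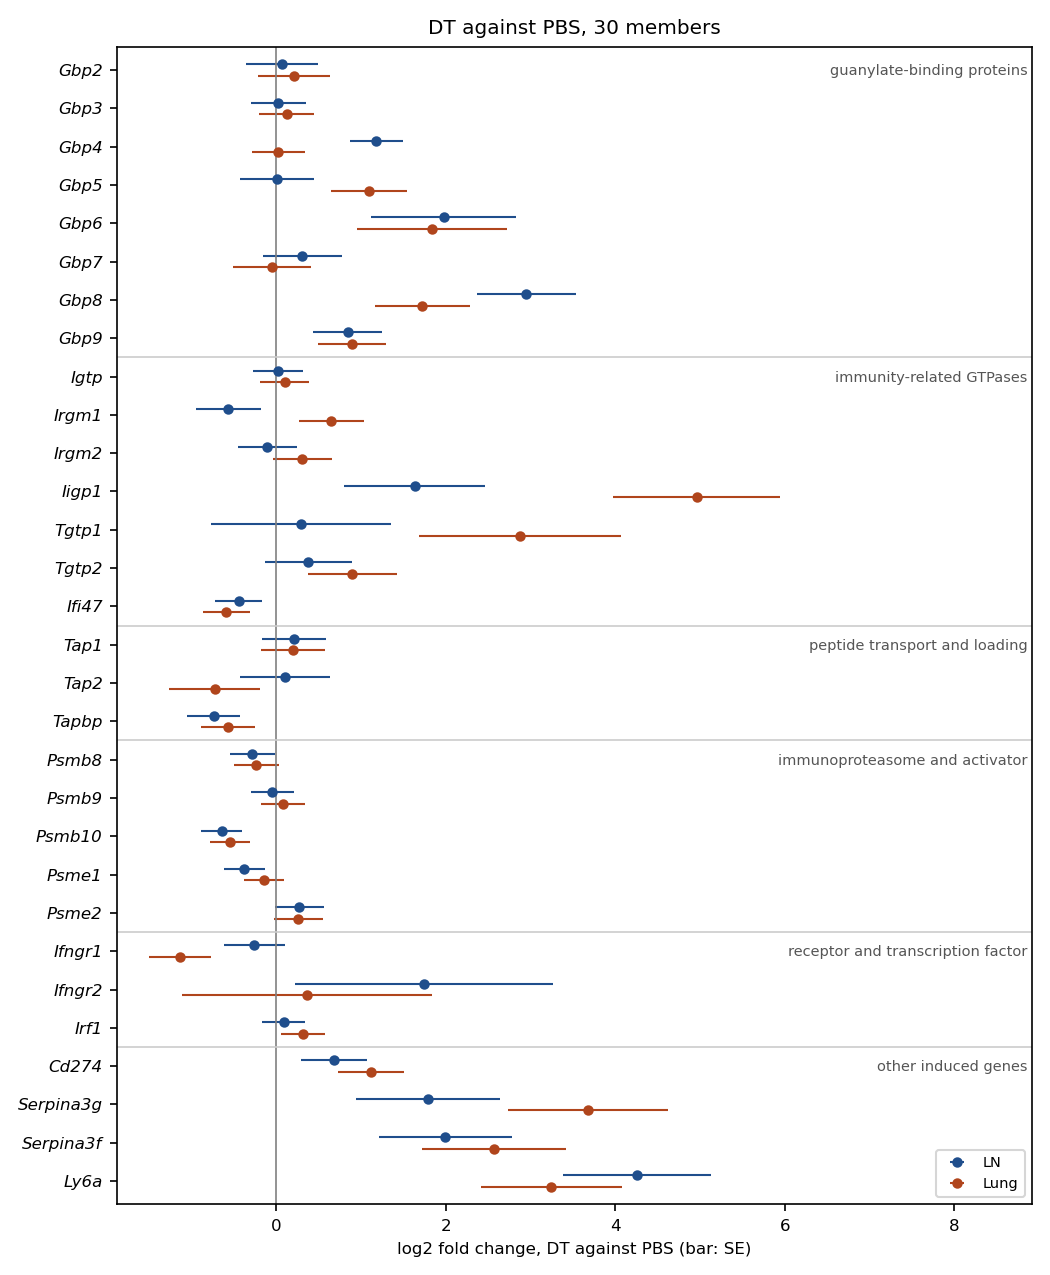
Log2 fold change of DT against PBS for the 30 members by role, in LN (blue) and lung (red), with bars of 1 SE (n = 4 libraries per group). Ly6a, Gbp8, Gbp6, the serpins, Iigp1 and Tgtp1 lie farthest to the right in 1 or both tissues, and Psmb10, Tapbp and Ifi47 lie left of 0 in both; no member passed an adjusted p of 0.05 in either.

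**Figure D3:**
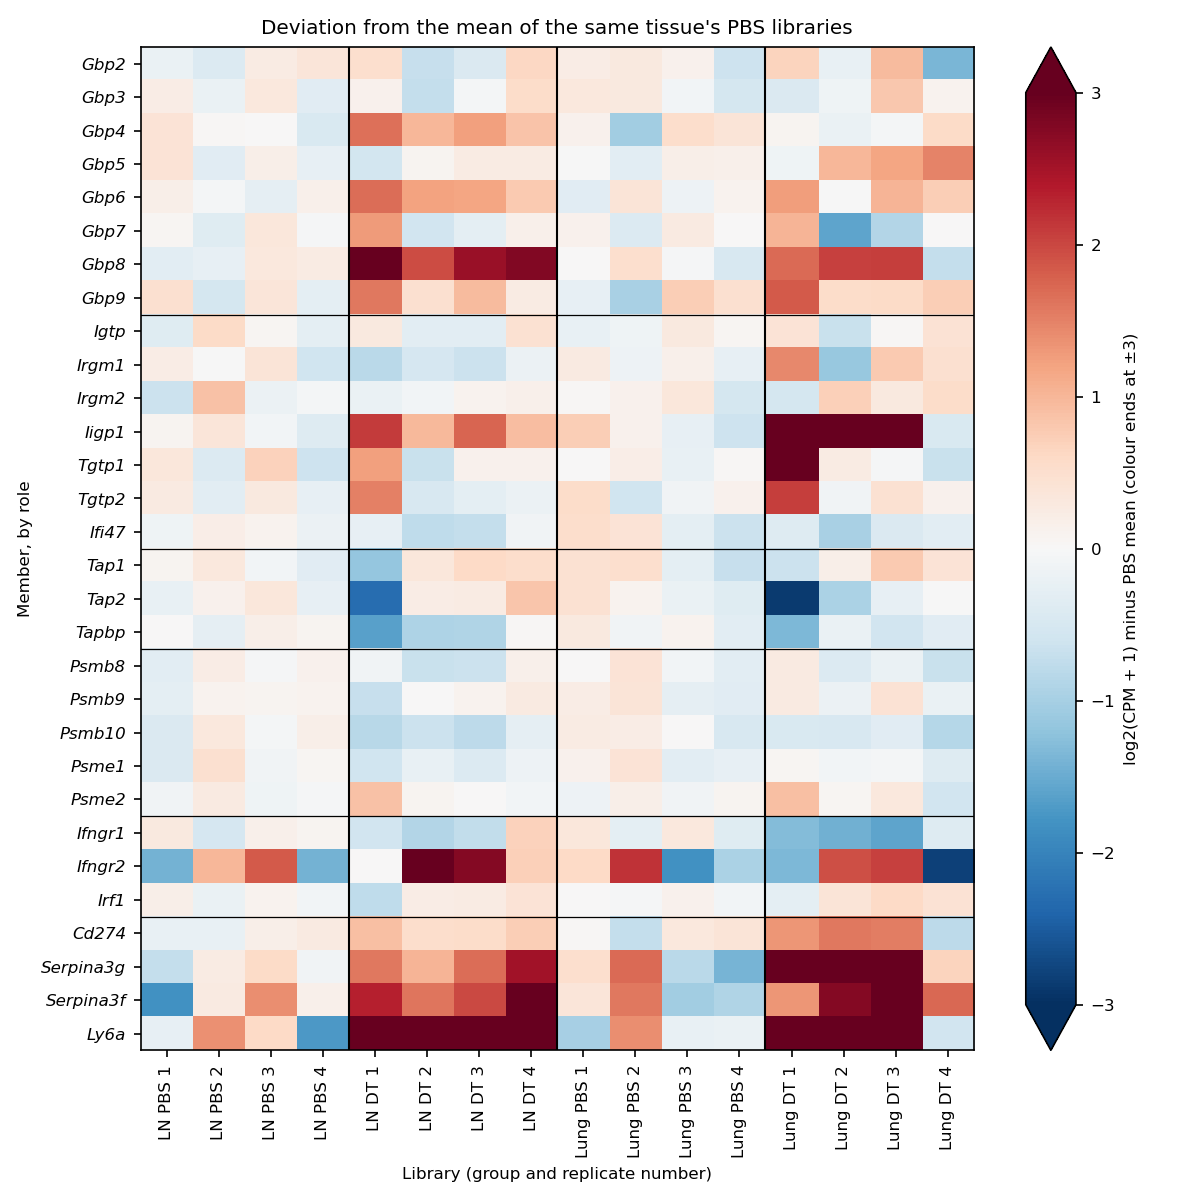
Each library's log2(CPM + 1) minus the mean of its tissue's PBS libraries, for the 30 members in rows by role and the 16 libraries in columns; red is above the PBS mean, blue below, and colours end at 3 in either direction. Ly6a, Gbp8, Iigp1, Cd274 and both serpins are red in most DT libraries, lung DT replicate 4 is blue or pale for most of them, and the DT replicates numbered 1 are red for Gbp9 and Tgtp2 and blue for Tap2.

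Whether DT had a different effect in the 2 tissues was tested as the LN effect minus the lung effect. No member passed in edgeR (0 of 30, where 0.00717% of all tested genes did), and 0 were called by DESeq2 or limma-voom. At an unadjusted p under 0.05, 1 member was higher and 2 were lower, against 2.88% and 1.33% of all tested genes. Iigp1 had a difference of -3.33 ± 1.21 on the log2 scale (95% interval -5.97 to -0.69, adjusted p = 1.00), Irgm1 of -1.21 ± 0.54 (-2.39 to -0.03) and Gbp4 of 1.16 ± 0.44 (0.19 to 2.13). Irgm1, a regulatory GTPase, stood at 157, 134, 177 and 88.1 CPM in LN PBS, 76.2, 94.5, 86.3 and 119 in LN DT, 79.5, 59.1, 73.6 and 55.2 in lung PBS and 182, 29.4, 115 and 93.3 in lung DT. For most other members the intervals were wide. That of Ly6a was -1.38 to 3.40 and that of Serpina3g -4.52 to 0.75, and both hold several-fold differences between the tissues. Those of Psmb10 (-0.83 to 0.64) and Psme1 (-0.97 to 0.50) were narrower, within 1 log2 unit in either direction. Over the members the median was -0.10, against 0.03 over all tested genes. In all 11 of 30 members were above 0, against 51.8% of all tested genes, and 9 of 30 with median-ratio factors or total counts. The immunity-related GTPases had 1 of 7 above 0.

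Without DT, the comparison of lung with LN asks how NK cells of the 2 tissues differ. Psmb9, a proteolytic subunit of the immunoproteasome, was lower in lung than in LN, and the other 4 genes of the immunoproteasome and its activator had log2 fold changes of -0.74 to -0.44 that did not pass. Ifngr1 and Irf1 had higher values in every lung library. In edgeR 0 members were called higher and 1 lower, against 2.70% and 0.904% of all tested genes (3.61% in either direction). DESeq2 called 1 and 9, against 779 and 398 of the 13940 tested genes, and limma-voom 2 and 10, against 1241 and 1055. At an unadjusted p under 0.05 there were 2 and 10, against 10.3% and 6.54% of all tested genes. Lung libraries lay above all LN libraries for 2 members (9.25% of all tested genes) and below them for 10 (9.91%). Of the 30 members 11 had a fold change above 0, against 49.3% of all tested genes, and the median was -0.49 against -0.01. With total counts as the scaling the median over all tested genes moved to -0.18, 7 members were above 0 and the share of calls that were higher moved from 75.0% to 56.5%. Markers of other cells also differed between the PBS groups: macrophage and monocyte markers summed to 40.8 to 295 CPM in LN and 297 to 2592 in lung, T cell markers to 356 to 440 and 39.4 to 79.1, and plasma cell markers to 765 to 1297 and 330 to 619. Their part in the members' values was not tested. The tissue comparisons use the same libraries as the comparisons of DT with PBS.

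Psmb9 stood at 230, 301, 295 and 301 CPM in LN PBS and at 154, 171, 109 and 104 in lung PBS, with no overlap. The log2 fold change was -1.07 ± 0.26 (adjusted p = 0.0256). Psmb10 was at 233 to 398 CPM in LN and 141 to 230 in lung (-0.70 ± 0.24, adjusted p = 0.115), and Psme1, the alpha subunit of the activator, at 319 to 594 and 207 to 342 CPM (-0.74 ± 0.24, adjusted p = 0.0969). The groups did not overlap for Psmb10 and Psme2 and overlapped for Psmb8 and Psme1. All 5 had fold changes below 0 under each of the 3 scalings, with a median of -0.70 by the main one. The constitutive subunits Psmb5, Psmb6 and Psmb7 and the other activators Psme3 and Psme4 together had 0 of 5 called, 2 of 5 above 0 and a median of -0.01. The Psmb9 call was lost without LN PBS replicate 2, 3 or 4 or lung PBS replicate 3 or 4 (adjusted p = 0.0605 to 0.107), with log2 fold changes of -1.05 to -0.95, and kept in 22 of 27 alternatives (adjusted p = 2.91e-04 to 0.107 over all).

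Of the immunity-related GTPases 6 of 7 had fold changes below 0 in lung against LN (7 of 7 with total counts), with a median of -1.05 and none called. Tgtp2 stood at 54.6, 36.1, 55.3 and 37.4 CPM in LN PBS and at 22.1, 9.44, 13.7 and 16.1 in lung PBS (-1.57 ± 0.53, adjusted p = 0.112), and its near copy Tgtp1 at 3.85 to 11.2 and 0.363 to 0.833 CPM (-3.53 ± 1.22, adjusted p = 0.121). Iigp1 stood at 4.64 to 8.48 CPM in LN and 0.248 to 2.18 in lung (-2.61 ± 0.91, adjusted p = 0.126), and Irgm1 also separated the tissues (-1.05 ± 0.39, adjusted p = 0.149). Igtp, whose promoter stretch holds the same pair of motifs as Tgtp2, had a log2 fold change of 0.01 (-0.15 with total counts as the scaling), with 132 to 252 CPM in LN and 149 to 213 in lung.

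Gbp5, a guanylate-binding protein known for inflammasome activation, stood at 22.9, 13.2, 19.1 and 14.03 CPM in LN PBS and at 5.46, 4.16, 6.29 and 6.21 in lung PBS (-1.64 ± 0.45, adjusted p = 0.0518). The other 7 of its family had fold changes between -1.04 and 0.66 and overlapping libraries. Serpina3f (-3.04 ± 0.86, adjusted p = 0.0585) and Serpina3g (-2.71 ± 0.92, adjusted p = 0.115) had lower values in lung, and Ly6a (0.52 ± 0.80) and Cd274 (0.48 ± 0.39) overlapped. Serpina3f overlapped through LN PBS replicate 1.

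The receptor chain and the transcription factor went the other way. Ifngr1 stood at 1393, 802, 1262 and 1207 CPM in LN PBS and at 3617, 2320, 3556 and 2237 in lung PBS, with no overlap (1.33 ± 0.37, adjusted p = 0.0521). Irf1 stood at 327, 250, 312 and 273 CPM in LN PBS and at 476, 460.4, 521 and 447 in lung PBS, with no overlap (0.71 ± 0.26, adjusted p = 0.144). Neither passed, and both lay higher in lung under each of the 3 scalings. Of the members not yet described, Tapbp (-0.66 ± 0.32, adjusted p = 0.307) did not overlap between the tissues, while Irgm2 (-0.58), Ifi47 (-0.50), Tap1 (-0.75), Tap2 (0.42) and Ifngr2 did.

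**Figure D4:**
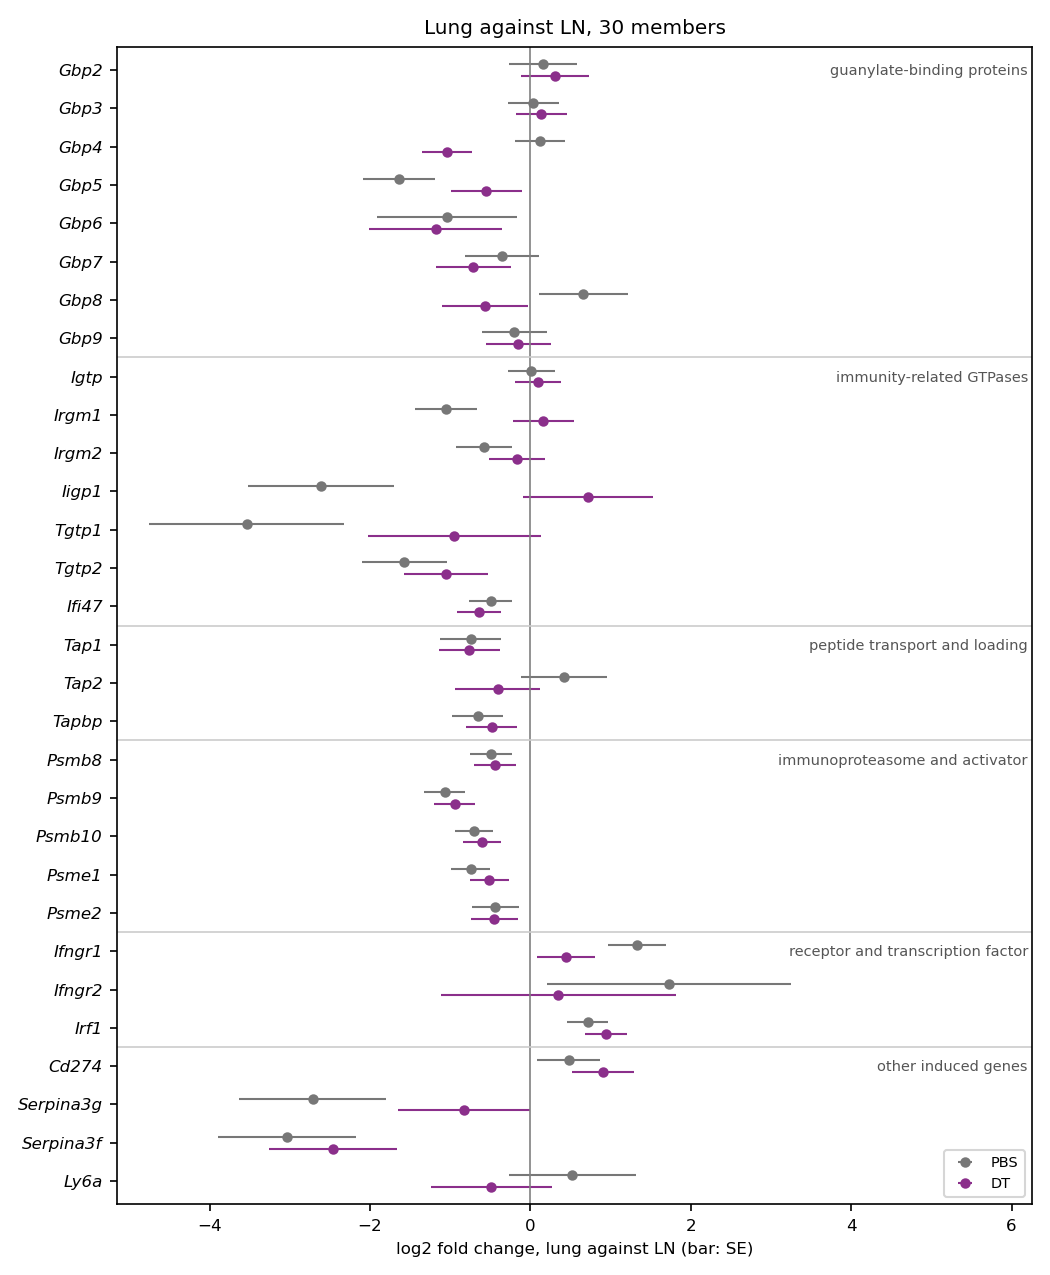
Log2 fold change of lung against LN for the 30 members by role, in PBS (grey) and DT (purple) mice, with bars of 1 SE (n = 4 libraries per group). All 5 genes of the immunoproteasome and its activator lie left of 0 in both, Ifngr1 and Irf1 lie right of 0 in both, and Psmb9 passed an adjusted p of 0.05 in both.

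After DT, the same tissue comparison had 1 member called higher in lung, Irf1, and 1 lower, Psmb9, against 3.97% and 2.78% of all tested genes (6.75% in either direction). DESeq2 called 1 and 3, against 1027 and 706 of the 13940 tested genes, and limma-voom 1 and 2, against 1012 and 792. At an unadjusted p under 0.05 there were 2 and 6 members, against 10.8% and 10.1% of all tested genes, and the libraries of the tissues did not overlap for 1 and 5, against 5.57% and 6.08%. Of the 30 members 9 had a fold change above 0, against 47.8% of all tested genes, and the median was -0.49 against -0.04. The 2 tissue comparisons share no library, but the model shares its estimate of the spread.

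Irf1 stood at 171, 336, 341 and 386 CPM in LN DT and at 387, 618, 724 and 646 in lung DT. The lowest lung library was barely above the highest LN library, and the log2 fold change was 0.94 ± 0.26 (adjusted p = 0.0355). Psmb9 stood at 173, 282, 299 and 339 CPM in LN DT and at 158, 117, 178 and 115 in lung DT (-0.94 ± 0.26, adjusted p = 0.0341), with an overlap through LN DT replicate 1. All 5 genes of the immunoproteasome and its activator and all 3 of transport and loading had fold changes below 0 under each of the 3 scalings, with medians of -0.51 and -0.48. Psmb10 (-0.61 ± 0.24, adjusted p = 0.141) and Psme1 (-0.51 ± 0.24, adjusted p = 0.232) did not overlap between the tissues.

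Among the GTPases, Gbp4 stood lower in lung DT than in LN DT without overlap (-1.04 ± 0.32, adjusted p = 0.0573), as did Ifi47 (-0.64 ± 0.27, adjusted p = 0.183). Serpina3f was at 43.6 to 115 CPM in LN DT and 5.45 to 23.1 in lung DT (-2.46 ± 0.80, adjusted p = 0.0746). Cd274 had a log2 fold change of 0.91 ± 0.39 (adjusted p = 0.185), with lung DT replicates 1 to 3 above and replicate 4 below all LN DT libraries. Iigp1, separated between the tissues with PBS, had overlapping libraries with DT (0.72 ± 0.81, adjusted p = 0.691).

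In the DT mice, deviations of same-numbered LN and lung libraries correlated (r = 0.41, 0.19, 0.23 and 0.18). LN 2 with lung 3 (0.23) and LN 3 with lung 2 (0.18) correlated as much, and the labels name no shared mouse. A fit with the replicate number as a block within treatment called 5 members. Irf1 was higher (0.97, adjusted p = 0.0020) and Gbp7 (-0.85, 0.0100), Tgtp2 (-1.09, 0.0200), Tap1 (-0.71, 0.0319) and Psmb9 (-0.93, 0.0371) were lower, with 720 genes lower in all. In the unblocked fit, the Psmb9 call was lost without LN DT replicate 2, 3 or 4, lung PBS replicate 3 or lung DT replicate 2 or 4 (adjusted p = 0.0501 to 0.0928), and the Irf1 call without LN PBS replicate 4, LN DT replicate 1, 2 or 3 or lung DT replicate 2, 3 or 4 (adjusted p = 0.0506 to 0.0898). Over all 27 alternatives Psmb9 passed in 17 and Irf1 in 16, with adjusted p of 0.00622 to 0.175 and 0.0020 to 0.202. Without both DT libraries numbered 4, neither passed, and Cd274 (1.26, adjusted p = 0.0318) and Gbp4 (-1.31, adjusted p = 0.0454) did. In the edgeR fit of the 2 groups alone, Irf1 and Psmb9 did not pass either, and Serpina3f (-2.46, adjusted p = 0.0428) was called lower.

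**Figure D5:**
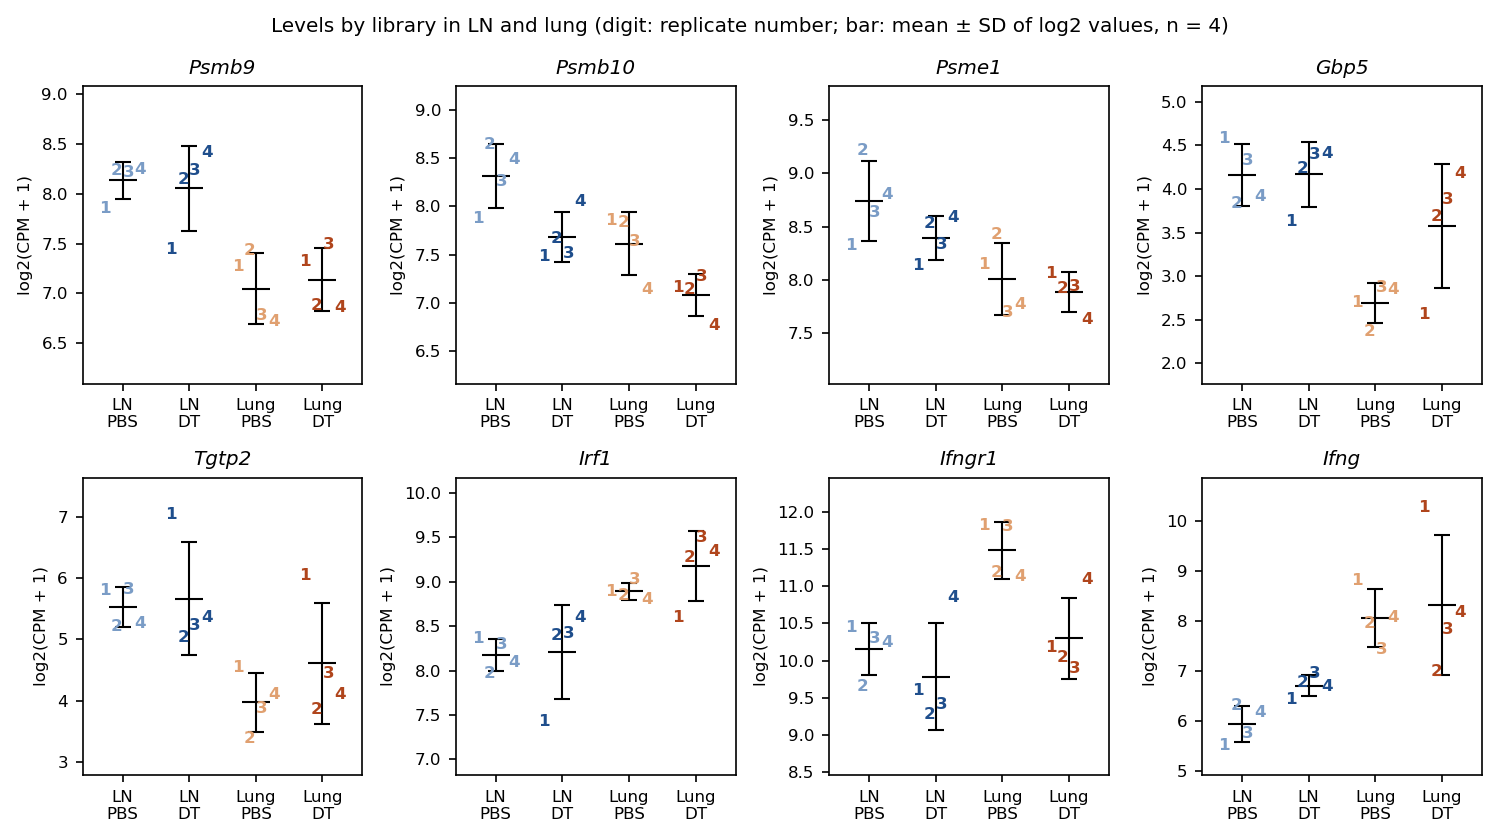
Levels of 7 members and of Ifng in each library, as log2(CPM + 1), by group; digits are replicate numbers and bars the mean ± SD of the log2 values (n = 4). Psmb9 and Psmb10 lie lower in lung than in LN within PBS, Irf1 and Ifng lie higher in lung, and Ifngr1 is highest in lung PBS.

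The ligand and the other genes of the pathway were read from lists of 15 signalling genes, 12 further interferon gamma targets, 8 further antigen-processing genes and 5 genes of the constitutive proteasome and other activators. Of these, Cxcl11, Ido1 and Nos2 had too few counts to be tested. Between tissues, 2 of the 15 signalling genes were called, both higher in lung, with PBS and again with DT. Ifng itself stood at 44.8, 78.5, 52.9 and 70.9 CPM in LN PBS, 85.2, 108.4, 122 and 102 in LN DT, 449, 246, 170 and 265 in lung PBS and 1229, 126, 227 and 287 in lung DT. Its lung libraries were above all LN libraries in both treatments (2.19 ± 0.53, adjusted p = 0.0259 with PBS and 2.16 ± 0.53, adjusted p = 0.0192 with DT). Irf8, a transcription factor related to Irf1, was higher in lung by 2.34 ± 0.33 with PBS (adjusted p = 4.28e-04) and by 1.32 ± 0.32 with DT (adjusted p = 0.0179). Ifng RNA was thus higher in the tissue where Psmb9 was lower and where Irf1 and Ifngr1 had higher fitted means. A link between Ifng and these genes was not tested.

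For DT against PBS, 0 pathway genes were called in either tissue. In LN, 8 of 15 signalling genes and 8 of 9 tested further targets had fold changes above 0, with medians of 0.13 and 0.83, and in lung 9 of 15 and 8 of 9, with medians of 0.19 and 0.89. Ifng had log2 fold changes of 0.75 ± 0.51 in LN (adjusted p = 0.595), where the groups did not overlap, and 0.73 ± 0.51 in lung (adjusted p = 0.521). The lung value rests on DT replicate 1, at 1229 CPM. Lung DT replicates 2 to 4, at 126, 227 and 287 CPM, lay within or below the lung PBS range of 170 to 449. Nlrc5, the transactivator of MHC class I genes, stood at 75.9, 91.3, 99.0 and 71.7 CPM in lung PBS and 147, 269, 158 and 171 in lung DT (1.14 ± 0.28, adjusted p = 0.104). It had the smallest p of these lists in lung, and replicate 4 was among the raised libraries. Gvin1, a very large interferon-inducible GTPase, also had all DT libraries above all PBS libraries in both tissues, with log2 fold changes of 0.88 ± 0.41 in LN (adjusted p = 0.404) and 1.19 ± 0.41 in lung (adjusted p = 0.212). The further antigen-processing genes had 2 of 8 above 0 in LN and 1 of 8 in lung.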

How the data were processed

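The authors deposited raw gene counts for 16 libraries, 4 in each of 4 groups. HISAT2 (alignment), HTSeq (counting) and the build GRCm38 are named per the submitters' processing notes. Versions, options and strand use were not given in those sources. No value column was left unmapped (0).

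Genes were kept by filterByExpr (minimum count 10, minimum total 15), which left 13940 of 49671. Counts were scaled by TMM and fitted as 4 group means in edgeR 4.0.16 (R 4.3.3), with robust quasi-likelihood F tests, two-sided, and Benjamini-Hochberg adjustment over all tested genes (threshold 0.05; 12 residual degrees of freedom; common biological coefficient of variation 0.621). CPM use the TMM-scaled library sizes. Fold changes are given for members called or with an unadjusted p under 0.05 in a comparison, and for others where levels are described. The members and lists were chosen with earlier results of these data known. Alternatives were median-ratio scaling, total counts alone, no filter, DESeq2 1.42.0, limma-voom (limma 3.58.1) with quality weights, the groups compared alone, a mitochondrial covariate, replicate blocks and libraries left out. The code was tested on simulated data.

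Labels number the replicates 1 to 4 in every group. Deviations from the group means correlated between same-numbered LN and lung libraries of DT mice (r = 0.41, 0.19, 0.23 and 0.18); LN 2 with lung 3 (0.23) and LN 3 with lung 2 (0.18) correlated as much. Every same-numbered r of the DT mice was above 0.1, so same-numbered libraries were treated as pairs in an alternative, in both treatments. In PBS mice the same-numbered r were -0.02, 0.19, -0.03 and -0.001, so the pairing has no such basis there. The labels do not say that same-numbered libraries share a mouse. Promoter windows come from RefSeq (GRCm38.p6), and the members without a window (Gbp4, Gbp6, Gbp8, Gbp9, Iigp1, Tap2 and Ly6a) have none shown. Total counts of 3929560 to 10744934 leave scarce members such as Gbp6, Tgtp1 and Ifngr2 with wide errors.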

Additional observations from a re-analysis of the deposited data

Results flagged for a closer look

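In 8 of 120 sets of 4 libraries (30 members in 4 groups), 1 library lay far from the other 3 by Dixon's criterion, and chance alone gives about 1 in 20, or 6. Of these, 5 were in the DT libraries numbered 1, which also had the highest Malat1. Gbp9 stood at 602 CPM in lung DT replicate 1, with the nearest library at 281. Tgtp1 stood at 16.4 CPM in the same library (nearest 0.877), and its near copy Tgtp2 at 64.8 (nearest 20.6). In LN DT replicate 1, Tgtp2 stood at 131 CPM (nearest 39.8) and Psme2 at 871 (nearest 502). Ifngr1 was apart in both DT libraries numbered 4, at 1834 CPM in LN (nearest 772) and 2179 in lung (nearest 1156), in each case toward or above the PBS range. Psmb9 was low in LN PBS replicate 1, at 230.2 CPM (nearest 295). What sets these libraries apart was not tested.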

How the results depend on the processing

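Values are genes called higher and lower, then members called higher and lower, where they moved from the reported counts. For DT in LN: no filter, 23 genes higher and 1 member higher; DESeq2, 246 and 52 genes and 3 members higher; limma-voom, 2084 and 1652 genes and 8 and 5 members; the 2 groups alone, 36 and 3 genes and 2 members higher; mitochondrial covariate, 1 gene higher; replicate block, 1 member higher (Ly6a 4.83, adjusted p = 0.0426); without both DT libraries numbered 1, 21 and 2 genes; without both numbered 4 (chosen after seeing the data), 97 and 65 genes and 2 members higher. For DT in lung: no filter, 12 genes lower and 1 member higher; DESeq2, 258 and 176 genes and 5 members higher; limma-voom, 251 and 184 genes and 1 and 1 members; the 2 groups alone, 0 and 0 genes; mitochondrial covariate, 0 and 1 genes; replicate block, 4 genes lower; without the DT libraries numbered 1, 171 and 297 genes and 1 member higher; without those numbered 4, 67 and 117 genes and 5 and 1 members. For the difference between the tissues: DESeq2, 18 and 1 genes; 0 genes higher with limma-voom, with either replicate block and without the DT libraries numbered 4.

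For lung against LN with PBS: median-ratio scaling, 1 and 2 members; total counts, 229 genes lower and 5 members lower; no filter, 1 member higher; DESeq2, 779 and 398 genes and 1 and 9 members; limma-voom, 1241 and 1055 genes and 2 and 10 members; the 2 groups alone, 909 and 593 genes and 2 and 6 members; mitochondrial covariate, 1 member higher; replicate block, 1 and 2 members; block within treatment, 585 and 264 genes and 2 and 5 members; without the DT libraries numbered 1, 894 and 471 genes and 2 and 5 members; without those numbered 4, 1 and 2 members. For lung against LN with DT: total counts, 0 and 2 members; no filter, 0 and 0 members; DESeq2, 1027 and 706 genes and 3 members lower; limma-voom, 1012 and 792 genes and 2 members lower; the 2 groups alone, 222 and 88 genes and 0 members higher; mitochondrial covariate, 2 members lower; replicate block, 0 members lower; block within treatment, 720 genes lower and 4 members lower; without the DT libraries numbered 1, 671 genes lower and 3 members lower; without those numbered 4, a members' median of -0.20 and other members called (Cd274 1.26 and Gbp4 -1.31 in place of Irf1 and Psmb9).

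Leaving out 1 library at a time gave, for DT in LN, 0 to 77 genes higher, 0 to 51 lower, 0 to 2 members higher, 0 lower and a members' median of 0.02 to 0.24. For DT in lung it gave 0 to 53, 1 to 85, 0 to 5, 0 and 0.14 to 0.31, and for the difference 0 to 3, 0, 0, 0 and -0.24 to 0.03. With PBS the tissues gave 210 to 671, 60 to 323, 0 to 1, 0 to 5 and -0.59 to -0.41, and with DT 292 to 844, 202 to 687, 0 to 1, 0 to 3 and -0.54 to -0.35. Of single members' folds under the alternatives, 993 kept direction and side of the threshold, 115 came to pass it, 26 ceased to and 4 changed sign: Tapbp in LN (0.046, mitochondrial covariate) and Tgtp1 in lung (-0.26 with limma-voom, -0.34 to 3.25 with 1 library left out, the lowest without lung DT replicate 1, and -0.35 without both DT libraries numbered 1). The cause was not tested. Same-numbered PBS and DT libraries did not pair (r of 0.03 to 0.15 in LN and -0.13 to 0.21 in lung).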
